A study of Homo sapiens with 9 samples.

Results

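ABHD4 encodes a serine hydrolase of the alpha/beta hydrolase fold, and its transcript was measured in HT-29 cells, an established human colon adenocarcinoma line with an epithelial phenotype. The gene was picked from the 14884 genes with a named row because earlier results of these arrays showed it high after both treatments, so its levels are given as a description with no test. It was found by its symbol in the platform annotation, where 1 row carries it. Rosemary extract, made from the herb and rich in polyphenols, was given to 3 cultures, carnosic acid, a phenolic diterpene of rosemary, to 3 others, and the vehicle to 3 that the labels call untreated. All 9 were harvested at 24 h, and RNA was hybridised to Affymetrix whole-transcript arrays. The groups share the cell line and medium, and since the labels name no dose, values after the extract and after carnosic acid stand side by side without matched doses. HT-29 is a single tumour line grown alone, and 3 arrays a group limit the precision. The series calls the replicates biological, and no shared day or batch is named.

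ABHD4 acts on phospholipids of the membrane. In mouse tissue it removes fatty acyl chains from N-acyl phosphatidylethanolamines, which opens a route to N-acylethanolamines, a family of lipid messengers that includes anandamide and palmitoylethanolamide. NAPEPLD makes the same messengers in a single step without ABHD4, and the amidases FAAH and NAAA break them down. In human prostate epithelial cells, loss of ABHD4 has been linked to survival after detachment from the matrix.

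The stretch of genome around the start of ABHD4 is shown because it is the sequence nearest to the transcript measured. It covers 250 bases before the start and 50 after it on the plus strand of chromosome 14, chr14:22598050-22598349 in RefSeq's GRCh38.p14 table. Capitals mark a GC box (GGGCGG) whose first base is at -30 from the start, and 2 matches on the other strand to the short core of the cAMP response element (TGACG), whose first bases on the strand shown are at -225 and -41. These matches do not overlap.

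ABHD4 promoter: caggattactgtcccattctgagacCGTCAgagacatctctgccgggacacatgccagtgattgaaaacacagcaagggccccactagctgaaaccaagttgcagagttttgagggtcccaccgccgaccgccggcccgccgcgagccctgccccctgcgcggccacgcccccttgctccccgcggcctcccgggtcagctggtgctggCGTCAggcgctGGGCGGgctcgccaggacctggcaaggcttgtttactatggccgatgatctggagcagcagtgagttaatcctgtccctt

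The window was 63.7% G and C, against a median of 58.7% over 35116 promoters of the same length. On either strand a GC box was found in 45.0% of those promoters and the cAMP response core in 24.6%. The core of the antioxidant response element (TGACNNNGC), the sequence through which NRF2 acts, had 0 matches in the ABHD4 window and a match in 13.3% of promoters. The E-box CACGTG, present in 7.26% of promoters, the C/EBP-ATF element TGATGNAAT, present in 0.991%, and the TATA box TATAAA, present in 11.5%, also had 0 matches in it. Matches are letters in this window and not sites shown to be bound.

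ABHD4 was high in every treated array. Its log2 level was 8.61, 8.71 and 8.51 with rosemary extract, 7.72, 7.65 and 7.65 with carnosic acid, and 5.63, 5.36 and 5.70 in untreated cells. These are RMA values, the authors' background-corrected and normalized signals, on which a step of 1 is a doubling. The order was rosemary extract, carnosic acid, untreated, and the groups did not overlap. The lowest extract array lay 0.79 above the highest carnosic acid array, and the lowest carnosic acid array 1.95 above the highest untreated one, while arrays of a group lay within 0.19 of each other with the extract, 0.07 with carnosic acid and 0.34 in untreated cells. Both steps in the order were thus wider than the spread of any group.

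**Figure D1:**
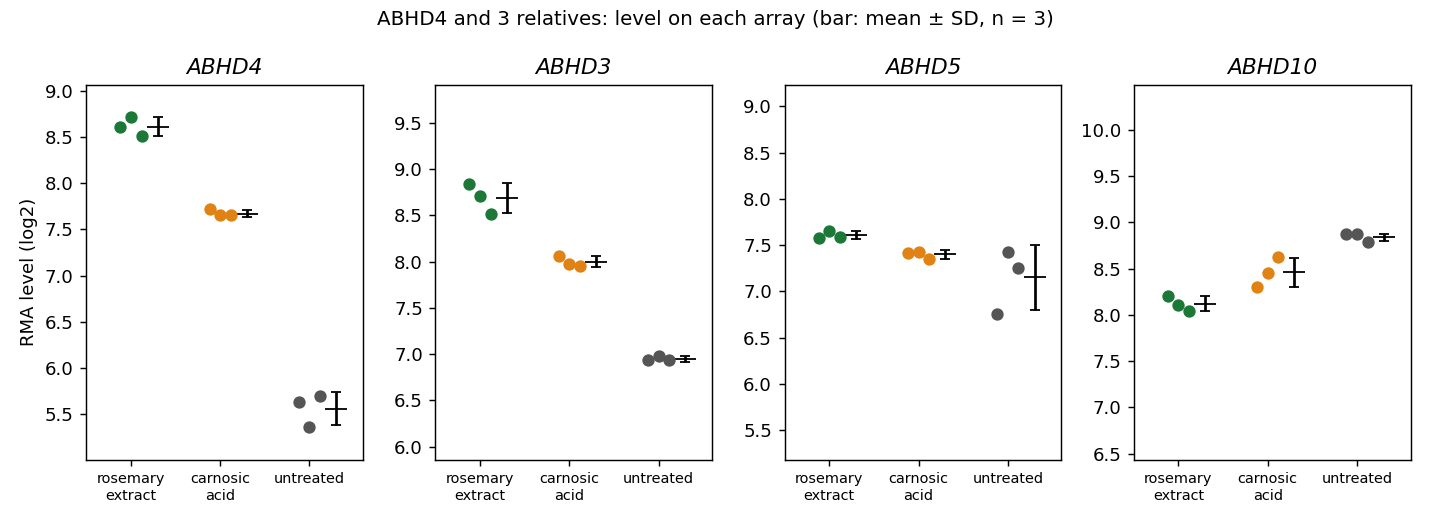
RMA level (log2) of ABHD4, ABHD3, ABHD5 and ABHD10 on each array, with points for the 3 arrays of a group and a bar for mean ± SD. The 4 vertical axes span the same distance and start at different levels. ABHD4 sat between 8.51 and 8.71 with the extract, between 7.65 and 7.72 with carnosic acid and between 5.36 and 5.70 in untreated cells.

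The means were 8.61 ± 0.10 with the extract, 7.67 ± 0.04 with carnosic acid and 5.56 ± 0.18 in untreated cells (SD, n = 3 each). ABHD4 was 8.27-fold higher with the extract than in untreated cells, a log2 difference of 3.05 ± 0.09 (SE). With carnosic acid it was 4.32-fold higher, a difference of 2.11 ± 0.09. Extract arrays exceeded carnosic acid arrays by 0.94 ± 0.09, or 1.91-fold. On the log2 scale the carnosic acid difference was 69.3% of the extract difference, and both rest on the same untreated arrays. The spread within groups, a residual SD of 0.120, was near the median of 0.114 over all genes tested. The untreated ABHD4 mean of 5.56 lay above 4.50, the level under which genes were dropped as dim. Of the hepatocyte markers with a row, APOA1 (5.89) and TTR (6.03) lay above it in untreated cells. ALB, APOB, TF and FGB lay below it (3.72 to 4.42). The arrays had no detection call, so part of that untreated ABHD4 level may be background. The fold differences and the 69.3% rest on it.

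Against the other genes, ABHD4 stood near the top with both agents. Of 11163 genes tested its difference ranked 5 with the extract, behind 4 metallothioneins, the metal-binding proteins MT1G (6.10), MT1H (5.26), MT1F (4.89) and MT1X (3.22). With carnosic acid it ranked 2, behind the carcinoembryonic antigen CEACAM5 (2.22) and just ahead of the monoamine oxidase MAOB (2.10). Between the treatments it ranked 53, far behind MT1G (5.67). The metallothioneins and MAOB were named after their values were seen, and these ranks describe the values for which ABHD4 was chosen.

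Other genes of the ABHD family, which share the hydrolase fold but act on different lipids and esters, went both ways. Of 20 written down, 12 were tested, 2 (ABHD1 and ABHD12B) were too dim and 6 had no named row. With rosemary extract 6 of the 12 rose and 3 fell, in limma's fit across all genes at an adjusted p under 0.05. Across all genes tested 21.8% were called higher with the extract and 16.3% lower. The family's median log2 difference was 0.20, against -0.018 over all genes. With carnosic acid 3 members rose and 2 fell, where 12.9% of all genes were called higher and 6.12% lower, and the median was 0.11 against -0.011. With so few members these counts describe the family and are no test of it.

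**Figure D2:**
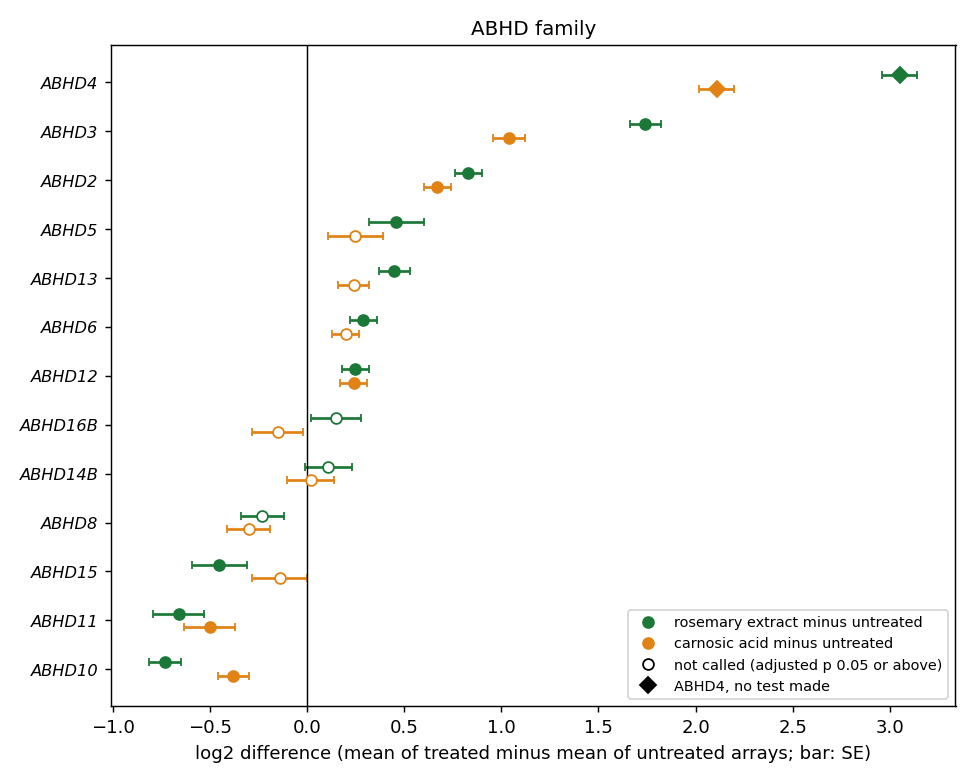
Log2 difference from untreated cells for ABHD4 and the 12 other ABHD genes tested, with rosemary extract in green and carnosic acid in orange. Points are differences of group means with the SE of the fit, open where not called. ABHD4 (3.05 and 2.11, no test made) lies right of ABHD3 (1.74 and 1.04), and ABHD10 (-0.73 and -0.38) is at the foot.

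ABHD3, a phospholipase that in mice cleaves phosphatidylcholines with medium-length chains, had the profile of ABHD4 at smaller size. ABHD3 log2 levels were 8.84, 8.71 and 8.52 with the extract, 8.06, 7.98 and 7.95 with carnosic acid, and 6.94, 6.98 and 6.94 in untreated cells. The 3 groups did not overlap. It rose 3.34-fold with the extract (log2 1.74 ± 0.08, SE, limma adjusted p = 4.91e-08) and 2.06-fold with carnosic acid (1.04 ± 0.08, adjusted p = 1.13e-05), and was higher with the extract than with carnosic acid (0.70 ± 0.08, adjusted p = 0.000122). ABHD2, a monoacylglycerol lipase of the cell membrane, rose by 0.83 ± 0.07 with the extract (adjusted p = 1.89e-06) and by 0.67 ± 0.07 with carnosic acid (adjusted p = 5.79e-05). The difference between its treatments, 0.15 ± 0.07, did not pass (adjusted p = 0.166), and passed only with the replicate number as a block (0.0420).

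ABHD5 is the closest relative of ABHD4 in sequence and serves as a coactivator of the triglyceride lipase PNPLA2. Its log2 level was 7.58, 7.65 and 7.59 with the extract, 7.41, 7.43 and 7.35 with carnosic acid, and 6.76, 7.43 and 7.25 in untreated cells. Untreated replicate 1 was the low array, and the carnosic acid and untreated arrays overlapped. ABHD5 rose by 0.46 ± 0.14 (SE) with the extract (limma adjusted p = 0.0187), a call lost without rosemary extract replicate 2 (adjusted p = 0.063). With carnosic acid the difference was 0.25 ± 0.14 and did not pass (adjusted p = 0.235). Both are smaller than the ABHD4 differences (3.05 and 2.11), a gap between genes that was not tested.

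Of the family members in the monoacylglycerol pathway, ABHD6 and ABHD12 moved less than ABHD2 (0.83 with the extract and 0.67 with carnosic acid). ABHD6 and ABHD12, which hydrolyse 2-arachidonoylglycerol, rose with the extract by 0.29 ± 0.07 (limma adjusted p = 0.00700) and 0.25 ± 0.07 (adjusted p = 0.0107). With carnosic acid ABHD12 rose by 0.24 ± 0.07 (adjusted p = 0.0274), a call that cyclic loess (0.0647) and a fit of just the 6 arrays (0.0638) took away, as did dropping untreated replicate 2 (0.0850), or replicate 2 (0.0916) or 3 (0.0578) of carnosic acid. ABHD6 gave 0.20 ± 0.07 with carnosic acid and did not pass (adjusted p = 0.0787), and passed only under median centring (0.0440). ABHD13 rose with the extract by 0.45 ± 0.08 (adjusted p = 0.000659). With carnosic acid it gave 0.24 ± 0.08 (adjusted p = 0.0531), which passed under median centring, with more of the dim genes left out or without untreated replicate 2 (0.0292 to 0.0378).

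Both mitochondrial members fell with each agent. ABHD10, a mitochondrial depalmitoylase, had log2 levels of 8.20, 8.11 and 8.04 with the extract, 8.30, 8.45 and 8.63 with carnosic acid, and 8.87, 8.87 and 8.79 in untreated cells. It fell by 0.73 ± 0.08 with the extract (limma adjusted p = 2.55e-05) and by 0.38 ± 0.08 with carnosic acid (adjusted p = 0.00709), and was lower with the extract than with carnosic acid (-0.34 ± 0.08, adjusted p = 0.0123). ABHD11, another mitochondrial hydrolase, fell by 0.66 ± 0.13 with the extract (adjusted p = 0.00175) and by 0.50 ± 0.13 with carnosic acid (adjusted p = 0.0193). The carnosic acid call of ABHD11 did not survive dropping untreated replicate 1 (0.0771), or replicate 1 (0.0865) or 2 (0.0681) of carnosic acid. ABHD15, a regulator of fat cell lipolysis, fell by 0.45 ± 0.14 with the extract (adjusted p = 0.0224), which failed when replicate 2 or 3 of untreated cells or 1 or 2 of the extract was dropped (0.0562 to 0.102). Without carnosic acid replicate 2 the family had 3 calls in place of 5 with carnosic acid, 2 higher and 1 lower.

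Between the treatments, 1 tested member of the family (ABHD3) was higher with the extract and 1 (ABHD10) lower, where 8.24% of all genes were called higher and 9.07% lower. In a fit of just the 6 treated arrays the count was 4, with ABHD5 (0.21, adjusted p = 0.0470) and ABHD13 (0.21, adjusted p = 0.0330) also higher with the extract. Of the 3 members with no call against untreated cells, ABHD14B gave 0.11 ± 0.12 with the extract and 0.02 ± 0.12 with carnosic acid, ABHD16B 0.15 ± 0.13 with the extract and -0.15 ± 0.13 with carnosic acid, and ABHD8 -0.23 ± 0.11 with the extract and -0.30 ± 0.11 with carnosic acid (log2, SE). ABHD8 passed with both agents without untreated replicate 3 (adjusted p = 0.0195 with the extract and 0.0170 with carnosic acid).

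The genes that act with ABHD4 on N-acylethanolamines had smaller changes. ABHD4 was chosen for its high levels and ranked 5 of 11163 genes with the extract and 2 with carnosic acid. Smaller changes in a list largely follow from that choice. Of 23 genes written down for this pathway, 13 were tested, 3 (PLAAT1, CNR1 and GPR119) were dim and 7 had no named row. With the extract 3 were called higher and 3 lower, near the 21.8% and 16.3% of all genes, and the median log2 difference was -0.10, against -0.018 over all genes. With carnosic acid PLAAT4 alone was called, lower, where 12.9% of all genes were called higher and 6.12% lower, and the median was -0.05, against -0.011. That count was 0 without untreated replicate 1, and 2 without untreated replicate 2, under median centring or under cyclic loess, where GDPD3 was called as well.

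**Figure D3:**
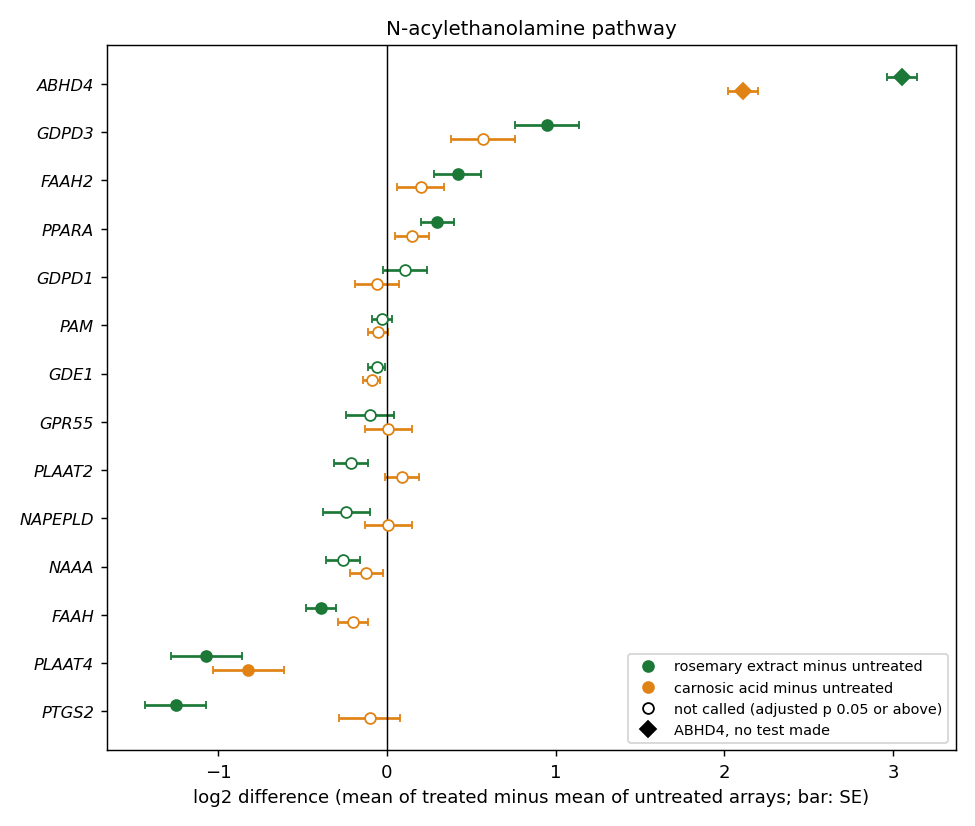
Log2 difference from untreated cells for ABHD4 and the 13 tested genes of the N-acylethanolamine pathway, with rosemary extract in green and carnosic acid in orange. Points are differences of group means with the SE of the fit, open where not called. Apart from ABHD4 the differences run from -1.25 (PTGS2) to 0.95 (GDPD3) with the extract and from -0.82 (PLAAT4) to 0.57 (GDPD3) with carnosic acid.

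Of the enzymes that supply the substrate of ABHD4, PLAAT4, a phospholipid acyltransferase also known as a retinoid-induced growth suppressor, fell. PLAAT4 was at log2 5.29, 5.71 and 5.59 with the extract, 5.20, 6.04 and 6.09 with carnosic acid, and 6.68, 6.46 and 6.66 in untreated cells. Every treated array lay under every untreated array, and carnosic acid replicate 1 was the lowest of all. It fell by 1.07 ± 0.21 with the extract (limma adjusted p = 0.00149) and by 0.82 ± 0.21 with carnosic acid (adjusted p = 0.0166), the second call being lost without untreated replicate 1 (adjusted p = 0.0591). PLAAT2, an acyltransferase of the same family, gave -0.21 ± 0.10 with the extract (adjusted p = 0.126) and 0.09 ± 0.10 with carnosic acid (adjusted p = 0.583).

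The parallel route and the steps after ABHD4 differed between genes. NAPEPLD, the phospholipase D of the direct route, had log2 levels of 6.59, 6.47 and 6.56 with the extract, 6.57, 6.72 and 7.08 with carnosic acid, and 6.63, 6.63 and 7.07 in untreated cells. Its difference was -0.24 ± 0.14 with the extract (limma adjusted p = 0.235) and 0.01 ± 0.14 with carnosic acid (adjusted p = 0.962), and neither passed. GDE1, the phosphodiesterase that takes up the product of ABHD4, gave -0.06 ± 0.05 with the extract (adjusted p = 0.331) and -0.09 ± 0.05 with carnosic acid (adjusted p = 0.216). GDPD3, a lysophospholipase D that can release N-acylethanolamine from the intermediate, had log2 levels of 6.22, 5.85 and 6.05 with the extract, 5.88, 5.66 and 5.46 with carnosic acid, and 4.73, 5.57 and 4.98 in untreated cells. The extract arrays lay above all untreated ones, and carnosic acid replicate 3 lay under the highest untreated array. GDPD3 rose by 0.95 ± 0.19 with the extract (adjusted p = 0.00203), and with carnosic acid gave 0.57 ± 0.19 (adjusted p = 0.0595), which passed without untreated replicate 2 (adjusted p = 0.00615), under median centring (0.0375) and under cyclic loess (0.0372). GDPD1, of the same family, gave 0.11 ± 0.13 with the extract (adjusted p = 0.544) and -0.06 ± 0.13 with carnosic acid (adjusted p = 0.801).

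Among the enzymes that break the messengers down, FAAH fell with the extract. FAAH was at log2 6.53, 6.81 and 6.66 with the extract, 6.79, 6.86 and 6.95 with carnosic acid, and 7.00, 7.05 and 7.13 in untreated cells. The fall was 0.39 ± 0.09 with the extract (log2 difference -0.39, limma adjusted p = 0.00381), and the carnosic acid difference of -0.20 ± 0.09 did not pass (adjusted p = 0.152). FAAH2, a second amidase, rose by 0.42 ± 0.14 with the extract (adjusted p = 0.0312), which failed on dropping replicate 1 (0.0691) or 2 (0.117) of untreated cells, or replicate 2 of the extract (0.130). NAAA, the acid amidase of lysosomes, gave -0.26 ± 0.10 with the extract and lay at the threshold (adjusted p = 0.0531, and 0.0255 to 0.0485 under 6 of the alternatives).

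PTGS2, the inducible cyclooxygenase that can oxidise anandamide, separated the treatments. PTGS2 was at log2 6.67, 6.30 and 6.47 with the extract, 7.41, 7.46 and 8.04 with carnosic acid, and 7.48, 7.71 and 8.01 in untreated cells. It fell by 1.25 ± 0.18 with the extract (limma adjusted p = 0.000157) and gave -0.10 ± 0.18 with carnosic acid (adjusted p = 0.758). The difference between the treatments was itself called (-1.16 ± 0.18, adjusted p = 0.000851). PPARA, a nuclear receptor for palmitoylethanolamide and oleoylethanolamide, rose by 0.30 ± 0.10 with the extract (adjusted p = 0.0340), which failed in a fit of just the 6 arrays (0.0674) and on dropping untreated replicate 2 or any extract array (0.0600 to 0.120). GPR55 gave -0.10 ± 0.14 with the extract and 0.01 ± 0.14 with carnosic acid.

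The counts of neighbouring lipid pathways are read against the shares of all genes, which were 21.8% higher and 16.3% lower with the extract and 12.9% higher and 6.12% lower with carnosic acid. In the monoacylglycerol pathway 8 of 16 genes written down were tested, while 6 had no named row and 2 were dim. Of the 8, ABHD2, ABHD6 and ABHD12 rose with the extract, as given above. FABP5, a carrier of fatty acids and endocannabinoids, fell by 0.28 ± 0.09 with the extract (limma adjusted p = 0.0267). The FABP5 call failed on dropping replicate 1 or 2 of either group (0.0616 to 0.0980). With carnosic acid 2 of the 8 rose, ABHD2 and ABHD12. MGLL, the main lipase for 2-arachidonoylglycerol, gave 0.14 ± 0.08 with the extract (adjusted p = 0.219) and 0.03 ± 0.08 with carnosic acid (adjusted p = 0.850).

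Among 14 tested genes of lysophospholipid metabolism, 4 rose and 2 fell with the extract and 5 rose with carnosic acid. Of 26 written down, 11 had no named row and 1 was dim. The extract counts were near the shares of all genes (21.8% higher and 16.3% lower), and 12.9% of all genes rose with carnosic acid. The list's median was 0.08 with each agent, against -0.018 over all genes with the extract and -0.011 with carnosic acid. PNPLA8, a calcium-independent phospholipase A, had log2 levels of 9.84, 9.81 and 9.54 with the extract, 9.06, 8.99 and 8.82 with carnosic acid, and 8.17, 8.28 and 8.41 in untreated cells. Like ABHD4 it lay highest with the extract, lowest in untreated cells, and the groups did not overlap. It rose by 1.44 ± 0.10 with the extract (limma adjusted p = 4.41e-07) and by 0.67 ± 0.10 with carnosic acid (adjusted p = 0.000606). PLBD2, a lysosomal phospholipase B-like protein, rose by 0.58 ± 0.08 with the extract (adjusted p = 0.000118) and 0.43 ± 0.08 with carnosic acid (adjusted p = 0.00322). LPCAT4, which reacylates lysophospholipids, fell by 0.76 ± 0.12 with the extract (adjusted p = 0.000302) and gave 0.03 ± 0.12 with carnosic acid (adjusted p = 0.907), and that difference between treatments was called (-0.78 ± 0.12, adjusted p = 0.000733). The carnosic acid count was 3 without carnosic acid replicate 2 or 3.

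Of 16 tested genes that make phosphatidylethanolamine and ether lipids, the membrane lipids from which N-acyl phosphatidylethanolamines derive, 2 rose and 4 fell with the extract, and 1 rose and 1 fell with carnosic acid. Another 5 genes written down for this list had no named row. Over all genes 21.8% rose and 16.3% fell with the extract, and 12.9% rose and 6.12% fell with carnosic acid. SELENOI, an ethanolamine phosphotransferase, rose by 0.95 ± 0.08 with the extract (limma adjusted p = 1.97e-06) and by 0.56 ± 0.08 with carnosic acid (adjusted p = 0.000516). GNPAT, the first enzyme of ether lipid synthesis, fell by 0.74 ± 0.05 with the extract (adjusted p = 6.87e-07) and 0.54 ± 0.05 with carnosic acid (adjusted p = 5.04e-05). FAR2, which makes fatty alcohols for ether lipids, had log2 levels of 6.95, 6.84 and 6.95 with the extract, 7.78, 7.78 and 8.05 with carnosic acid, and 8.06, 8.12 and 8.21 in untreated cells. It fell by 1.21 ± 0.09 with the extract (adjusted p = 7.08e-07), and gave -0.26 ± 0.09 with carnosic acid (adjusted p = 0.0587), which passed without carnosic acid replicate 3 and under 3 other alternatives (0.0111 to 0.0418). TMEM86A, a lysoplasmalogenase, rose by 0.98 ± 0.13 with the extract (adjusted p = 8.86e-05).

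The tested genes of anoikis, death on loss of matrix contact, and of matrix attachment differed little. Of 23 written down 11 were tested, and the other 12, the integrins of the list among them, had no named row. Over the 11 tested members the log2 differences ran from -0.22 to 0.41 with the extract, where 3 rose and 2 fell, and from -0.20 to 0.33 with carnosic acid, where 3 rose. The extract counts were near the shares of all genes (21.8% higher and 16.3% lower), and with carnosic acid 12.9% of all genes rose. BCL2L1, which encodes the survival protein BCL-XL, rose by 0.41 ± 0.05 with the extract (limma adjusted p = 6.26e-05) and 0.29 ± 0.05 with carnosic acid (adjusted p = 0.00279). PXN, the focal adhesion scaffold paxillin, rose by 0.32 ± 0.06 with the extract (adjusted p = 0.000950) and 0.33 ± 0.06 with carnosic acid (adjusted p = 0.00249). The anoikis effectors BCL2L11 (0.06 ± 0.09 with the extract and 0.08 ± 0.09 with carnosic acid) and BMF (-0.13 ± 0.09 with the extract and 0.01 ± 0.09 with carnosic acid) did not pass with either agent. The falls with the extract were in the adhesion protein VCL (-0.19 ± 0.07, adjusted p = 0.0360) and the kinase AKT1 (-0.22 ± 0.07, adjusted p = 0.0300). Both calls failed under median centring and on dropping replicate 2 or 3 of either group (0.0502 to 0.127 over all of VCL's failures, 0.0530 to 0.0942 over AKT1's). Without untreated replicate 2 the extract count was 2, both higher. The third riser, the survival protein MCL1, had an adjusted p of 0.0488 with carnosic acid that failed in 11 alternatives (up to 0.188) and 0.0160 with the extract that failed in 2 (up to 0.0702).

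The NRF2 targets, electrophile response genes that carnosic acid is known to induce, moved in the direction of ABHD4. Of 36 written down 18 were tested, and the others, NQO1 and GCLM among them, had no named row. The 18 hold NFE2L2, which encodes NRF2, and the NRF2 regulator KEAP1, so the counts and medians are not of targets alone. With the extract 16 rose and with carnosic acid 15 did, where 21.8% of all genes rose with the extract and 12.9% with carnosic acid. The list's median log2 difference was 0.93 with the extract, against -0.018 over all genes, and 0.49 with carnosic acid, against -0.011. The list had been seen to rise in earlier results of these arrays, so its count is not independent evidence. HMOX1, the haem-degrading enzyme, came close to ABHD4 with the extract and not with carnosic acid. HMOX1 was at log2 10.29, 10.40 and 10.15 with the extract, 8.36, 8.35 and 8.15 with carnosic acid, and 7.18, 7.40 and 7.37 in untreated cells. The HMOX1 differences were 2.96 ± 0.09 with the extract and 0.97 ± 0.09 with carnosic acid, beside 3.05 and 2.11 for ABHD4.

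SRXN1, sulfiredoxin, had log2 levels of 10.84, 10.97 and 10.78 with the extract, 10.04, 9.81 and 9.76 with carnosic acid, and 8.34, 8.49 and 8.52 in untreated cells. Its differences from untreated cells were 2.41 ± 0.08 with the extract and 1.42 ± 0.08 with carnosic acid. PGD, of the pentose phosphate pathway, rose by 1.17 ± 0.04 with the extract and 0.84 ± 0.04 with carnosic acid, and GSR, glutathione reductase, by 1.16 ± 0.06 with the extract and 0.89 ± 0.06 with carnosic acid. NFE2L2, which encodes NRF2 itself, gave -0.02 ± 0.06 with the extract (limma adjusted p = 0.812) and -0.06 ± 0.06 with carnosic acid (adjusted p = 0.520). All 18 genes of the list, NFE2L2 among them, differed from untreated cells by less than ABHD4 with each agent. ABHD4 was chosen for its high levels, so this order was likely beforehand.

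The 10 genes closest to ABHD4 were sought over the 9 arrays, by the root mean square of the gap between each gene's and ABHD4's log2 change from its own untreated mean. This gap was 0.264 for CEACAM5, 0.321 for the long noncoding RNA APCDD1L-DT, 0.396 for the actin nucleator SPIRE1, 0.424 for the lysosomal protease CTSL and 0.436 for the lipoprotein receptor VLDLR. It was 0.451 for GPAT3, which starts glycerolipid synthesis, 0.470 for the histone demethylase KDM7A, 0.534 for the secreted phosphoprotein SPP1, 0.539 for the hypoxia-inducible factor EPAS1 and 0.555 for SRXN1. The next gene, MAOB, had 0.558, and the median over 10475 genes was 2.16. These genes were found by the values of ABHD4 itself and get no test.

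**Figure D4:**
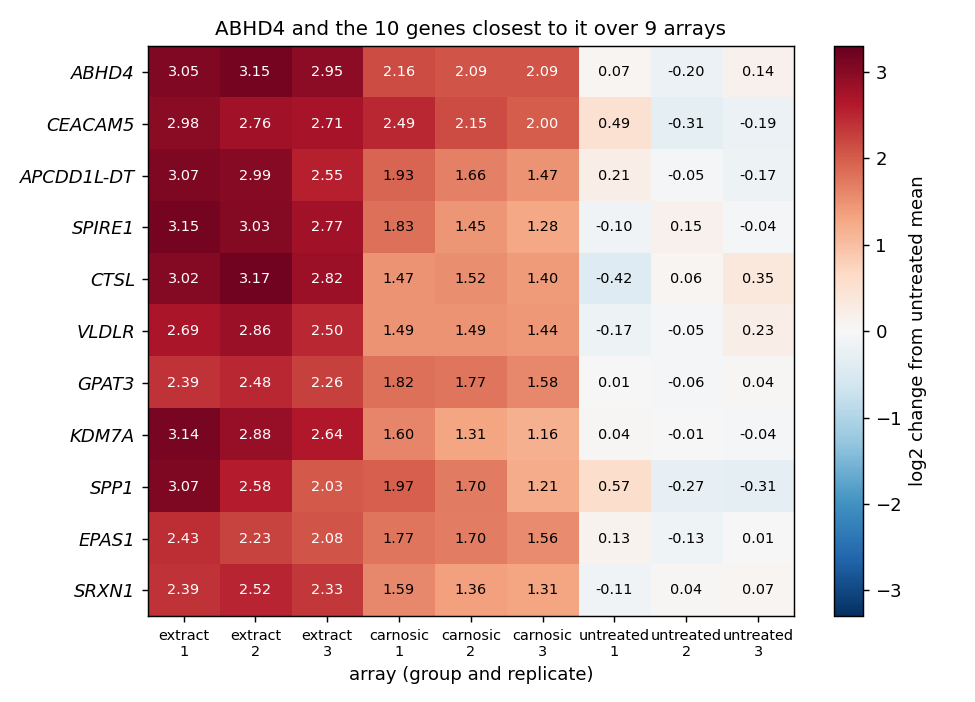
Log2 change from the gene's own untreated mean on each of the 9 arrays (columns, by group and replicate) for ABHD4 and the 10 genes closest to it (rows), with red for higher. ABHD4 reads 3.05, 3.15 and 2.95 with the extract and 2.16, 2.09 and 2.09 with carnosic acid. The mean difference between the treatments is 0.94 for ABHD4 and wider for CTSL (1.54) and SPIRE1 (1.47). It is narrower for CEACAM5 (0.60), GPAT3 (0.66) and EPAS1 (0.57).

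CEACAM5 had the smallest gap over the 9 arrays together. CEACAM5 log2 levels were 10.17, 9.95 and 9.90 with the extract, 9.68, 9.34 and 9.19 with carnosic acid, and 7.68, 6.88 and 7.00 in untreated cells, with untreated replicate 1 the high array of its group. Its differences of 2.82 ± 0.19 with the extract and 2.22 ± 0.19 with carnosic acid stand beside 3.05 and 2.11 for ABHD4. CTSL was closer to ABHD4 with the extract (3.01) and farther from it with carnosic acid (1.47), as were SPIRE1 (2.98 with the extract and 1.52 with carnosic acid) and KDM7A (2.89 with the extract and 1.36 with carnosic acid). GPAT3 had log2 levels of 9.80, 9.89 and 9.67 with the extract, 9.23, 9.18 and 8.99 with carnosic acid, and 7.42, 7.35 and 7.45 in untreated cells, a difference of 2.38 with the extract and 1.73 with carnosic acid.

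With Pearson's r over the 9 arrays in place of the gap, 1 of the 10 genes (GPAT3, r = 0.997) was the same. The measure r ignores size, and the 9 arrays fall into 3 groups, so a high r mostly restates the order of the groups. By r the closest were the fatty acid elongase ELOVL1 (0.999), the vesicle tethering protein VPS18 (0.998) and CDCP1 (0.998), whose extract differences were 1.12, 0.94 and 1.93 in log2. Of the 10 closest by the gap, 9 had a promoter entry, all but APCDD1L-DT, and in those the antioxidant response element core had a match in 2, the GC box in 5 and the cAMP response core in 1.

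Genes next to ABHD4 in the order of measured genes on chromosome 14 had smaller changes, which the choice of ABHD4 for its high levels made likely beforehand. Taken were the 5 nearest protein-coding genes with a row on each side in RefSeq's order. Genes without a row were passed over and distance was not used, so these genes need not lie close to ABHD4. With the extract 3 of the 10 rose and 1 fell, where 21.8% of all genes rose and 16.3% fell, and with carnosic acid 3 rose, where 12.9% did. OXA1L, the first measured gene after ABHD4, gave 0.06 ± 0.05 with the extract (limma adjusted p = 0.361) and -0.08 ± 0.05 with carnosic acid (adjusted p = 0.276).

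**Figure D5:**
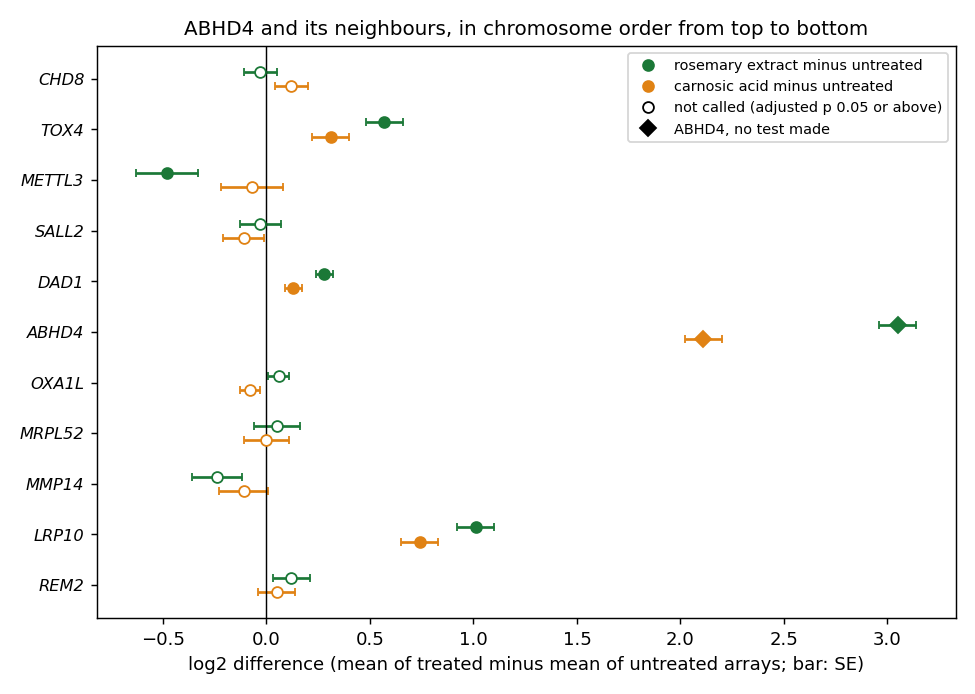
Log2 difference from untreated cells for ABHD4 and its 5 nearest measured neighbours on each side, in chromosome order from top to bottom, with rosemary extract in green and carnosic acid in orange. Bars are the SE of the fit and open points were not called. The neighbours lie between -0.48 (METTL3) and 1.01 (LRP10) with the extract and between -0.11 and 0.74 with carnosic acid, left of ABHD4 at 3.05 and 2.11.

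DAD1, a subunit of the oligosaccharyltransferase and the first measured gene before ABHD4, had log2 levels of 11.28, 11.32 and 11.35 with the extract, 11.17, 11.14 and 11.19 with carnosic acid, and 11.04, 10.99 and 11.08 in untreated cells. It rose by 0.28 ± 0.04 with the extract (limma adjusted p = 0.000201). With carnosic acid it rose by 0.13 ± 0.04 (adjusted p = 0.0438), which failed on dropping any array other than untreated replicate 3, under cyclic loess, with no variance trend and in a fit of just the 6 arrays (0.0504 to 0.166). LRP10, a lipoprotein receptor relative, had log2 levels of 8.24, 8.26 and 8.29 with the extract, 8.02, 8.05 and 7.90 with carnosic acid, and 7.45, 7.21 and 7.10 in untreated cells. It rose by 1.01 ± 0.09 with the extract (adjusted p = 3.30e-06) and 0.74 ± 0.09 with carnosic acid (adjusted p = 0.000183).

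TOX4, a chromatin protein, rose by 0.57 ± 0.09 with the extract (limma adjusted p = 0.000271) and by 0.31 ± 0.09 with carnosic acid (adjusted p = 0.0272). METTL3, the RNA methyltransferase, fell by 0.48 ± 0.15 with the extract (adjusted p = 0.0260), which failed on dropping replicate 1 or 3 of either group (0.0503 to 0.0979). The carnosic acid call of TOX4 failed on dropping replicate 1 or 2 of either group (0.0674 to 0.0953), and without any of those 4 arrays 1 neighbour, LRP10, was called with carnosic acid.

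Colon epithelial markers were well above the dim limit in all groups. Of 13 colon epithelial markers 10 had a named row and none of those was dim, and their mean log2 level was 8.73 to 8.83 with the extract, 8.83 to 8.90 with carnosic acid and 8.63 to 8.75 in untreated cells. With the extract 2 of these 10 rose and 3 fell, where 21.8% of all genes rose and 16.3% fell. With carnosic acid 3 rose and 3 fell, where 12.9% of all genes rose and 6.12% fell. CEACAM5 is 1 of the risers, and KRT20, a keratin of differentiated colon cells, rose by 0.77 ± 0.06 with the extract (limma adjusted p = 8.13e-07) and by 0.88 ± 0.06 with carnosic acid (adjusted p = 2.58e-06). KRT18, a keratin of simple epithelia, fell by 0.48 ± 0.05 with the extract (adjusted p = 6.70e-06) and by 0.31 ± 0.05 with carnosic acid (adjusted p = 0.000770). VIL1, villin of the brush border, fell by 1.29 ± 0.07 with the extract (limma adjusted p = 1.52e-07) and by 0.35 ± 0.07 with carnosic acid (adjusted p = 0.00680). Of markers of other cells, 4 of 9 fibroblast, 6 of 8 hepatocyte and 5 of 7 endothelial genes had a row, of which 2, 4 and 2 were dim. The others passed the limit. Their untreated means were 5.98 (VIM), 6.13 (THY1), 5.89 (APOA1), 6.03 (TTR), 4.87 (VWF), 6.24 (CLDN5) and 8.14 (ENG). The 4 leukocyte genes of 9 with a row (PTPRC had none) averaged 7.95 to 8.07 with the extract, 7.85 to 7.91 with carnosic acid and 7.68 to 7.71 in untreated cells, the order of ABHD4. CD68, which also marks lysosomes, was the riser among them, by 1.89 ± 0.08 with the extract (limma adjusted p = 3.29e-08) and 1.24 ± 0.08 with carnosic acid (adjusted p = 4.20e-06). LYZ fell by 0.26 ± 0.05 with the extract. CD14 (-0.31 ± 0.17 with the extract and -0.27 ± 0.17 with carnosic acid) and NKG7 (-0.09 ± 0.12 with the extract and -0.15 ± 0.12 with carnosic acid) did not pass. Of these 4 genes CD68 alone had the order of ABHD4. HT-29 was grown alone, so the design includes no leukocytes, and their part in the level of ABHD4 was not tested. In bulk RNA a change in the share of HT-29 cells that express a gene cannot be told apart from a change of its level in each cell.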

How the data were processed

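Affymetrix whole-transcript arrays measured RNA of 9 HT-29 cultures, 3 a group. The deposited values are log2 expression values made by the authors with RMA in the oligo package, per the labels and the submitters' processing notes. Software versions and the annotation used are not stated there, and the log2 scale was read from the values. RMA compresses large differences and gives no detection call. Array medians over 53617 rows lay between 4.82 and 4.90, arrays of a group correlated at 0.991 or above, and 0 pairs of arrays held identical values.

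Rows were named through the platform annotation: 16098 had 1 symbol, 0 had several and 37519 were unnamed here. All 16098 Entrez identifiers matched the RefSeq gene table, and 0 symbols changed. Where several rows shared a symbol the brightest on average stood for it, giving 14884 genes, and the dimmest 25% (below 4.50 in log2) were dropped, leaving 11163.

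Group means were fitted to all 9 arrays with limma 3.58.1 in R 4.3.3 (lmFit, eBayes with a trend, 6 residual degrees of freedom, two-sided, Benjamini-Hochberg adjustment over 11163 genes, calls at an adjusted p under 0.05), after a check on simulated data. SD is over 3 arrays and SE is limma's. The p-values measure the spread between these arrays. Named were ABHD4, its neighbours, the ABHD and N-acylethanolamine lists, up to 4 genes with the smallest F-test p of each other list plus 7 fixed genes, and the 10 genes closest to ABHD4, leaving out uncharacterised loci and small RNAs. The fixed genes were ABHD5, NAPEPLD, FAAH, HMOX1, NQO1, SRXN1 and GCLM. Genes outside this rule were named after their values were seen. They were MAOB, the metallothioneins, MGLL, BCL2L11, BMF, AKT1, NFE2L2, KEAP1, ALB, APOB, TF, FGB and those ranked by correlation. The gene and the lists were chosen with earlier results of these data known. Alternatives were median centring, cyclic loess, the mean of a gene's rows, other limits on dim genes, no variance trend, only the arrays compared, the replicate number as a block, and leaving out each array.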

Additional observations from a re-analysis of the deposited data

How the results depend on the processing

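The ABHD4 differences moved little under the alternatives run. Leaving out each array gave 2.95 to 3.12 for rosemary extract minus untreated, 2.01 to 2.18 for carnosic acid minus untreated and 0.89 to 0.99 for rosemary extract minus carnosic acid. With the replicate number as a block the ABHD4 differences were 3.05, 2.11 and 0.94, as without it. Same-numbered arrays did not deviate together (correlations of -0.219 to 0.238), so the numbers were not taken as pairs. Such correlations over many genes do not exclude a shared replicate effect in single genes. The endothelial marker ENG, for example, rose from replicate 1 to 3 in every group. Its carnosic acid difference passed only with the block (0.30, limma adjusted p = 0.00886). Genes called with carnosic acid numbered 2123, and 1385 to 2124 with an array left out, the lowest without carnosic acid replicate 1. Of the list counts, ABHD calls with carnosic acid were 5, and 3 to 6 with an array left out. Between treatments the ABHD count of 2 became 4 with the replicate block, which added ABHD2 (0.15, limma adjusted p = 0.0420) and ABHD15 (-0.31, adjusted p = 0.0224), and 4 with the 6 arrays compared. For N-acylethanolamine genes with carnosic acid the count of 1 became 2 under median centring and 2 under cyclic loess, and 0 to 2 with an array left out. Between treatments it was 1, and 1 to 2. The 10 genes closest to ABHD4 were the same 10 under median centring. Of 6045 checks on 360 single gene results, 161 lost a call, 69 gained one and 0 called values changed sign. A gene called only near the threshold rests on 3 arrays a group, and low levels cannot be told from background.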
